A study of Mus musculus with 9 samples.

Results

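Expression of 39 genes of lysosomes and autophagy was examined in mouse LSK cells, the Lin-Sca1+cKit+ marrow population enriched for blood stem cells and early progenitors. The genes were listed by symbol, and each was read from its brightest probe set, the one with the highest mean over the 9 arrays. A probe set naming that gene alone was found for 38 of the 39, and all 38 entered the test alongside the other genes, 12400 in all. Cd63 had no such probe set and is not analysed here. The 38 comprise 29 lysosomal genes and 9 genes of the autophagy machinery, which are described apart.

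The arrays fall into 3 groups of 3, all from C57BL6 mice sampled 8 weeks after transplantation. Control mice had received wild type LSK cells. The other mice had received cells transduced with a retroviral vector for the transgene labelled dnMPL, and their LSK cells were sorted into a GFP-negative and a GFP-positive fraction. All hosts had been lethally irradiated, each array pooled the marrow of 2 to 5 mice, and nothing in the labels tells whether control cells were given a vector. Effects of transduction and culture therefore cannot be told apart from those of dnMPL. The labels list the arrays as separate samples without naming the animals behind each, so p-values measure the spread between these samples. It is likewise unstated whether a GFP-negative and a GFP-positive array with 1 number share mice. Levels are log2 RMA values, so a difference of 1 is a doubling, and levels of different genes are not compared because each probe set has its own scale.

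Lysosomes are acidic organelles in which hydrolases break down proteins, sugar chains and lipids delivered by endocytosis and autophagy. A proton pump, the V-ATPase, acidifies them, and membrane proteins such as LAMP1 and LAMP2 line them. Autophagy encloses cytoplasm and worn organelles in a double membrane that then fuses with the lysosome, and blood stem cells are known to depend on it for their maintenance. The transcription factors TFEB and TFE3 switch on many lysosomal and autophagy genes through E-box sequences with CACGTG at their centre.

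The E-box is shown first because it was not read from the expression values. The list holds Tfeb, Tfe3 and genes of a pathway known for this motif. Its frequency is therefore not independent of the choice of genes. In the RefSeq promoter windows of build GRCm38.p6, which run from 250 bases before to 50 bases after a transcription start, 33 of the 39 genes had an entry. CACGTG, which reads the same on both strands, was found in 12 of these 33 genes (36.4%), against 8.09% of the 27025 genes with a window and 10.2% of the 14452 that also have a probe set on the array. The longer form TCACGTGA, which contains it, was found in 6 of 33 (18.2%), all of them lysosomal. This compares with 1.12% of all genes with a window and 1.63% of those with a probe set. Among 109 other listed lysosome and autophagy genes with a window the shares were 20.2% for CACGTG and 6.42% for TCACGTGA. The windows are given with the motif in capitals, 5′ to 3′ on the strand of the gene. They show genes described further on and Lamp1, whose window holds 4 copies of CACGTG.
Lamp1, chr8:13159096-13159155, plus strand: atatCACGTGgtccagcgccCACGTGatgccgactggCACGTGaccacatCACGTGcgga
Gla, chrX:134601182-134601211, minus strand: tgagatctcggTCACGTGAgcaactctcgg
Gla, chrX:134601215-134601244, minus strand: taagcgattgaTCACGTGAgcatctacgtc
Atp6v1a, chr16:44139373-44139402, minus strand: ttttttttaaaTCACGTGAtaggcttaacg
Ctsd, chr7:142387908-142387937, minus strand: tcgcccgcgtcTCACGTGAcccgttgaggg
Mcoln1, chr8:3500462-3500491, plus strand: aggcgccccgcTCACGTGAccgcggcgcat
Atp6v0d1, chr8:105566050-105566079, minus strand: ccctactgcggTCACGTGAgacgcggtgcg
Glb1, chr9:114401018-114401047, plus strand: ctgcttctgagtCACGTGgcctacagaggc
A match describes these letters only. The data hold no measurement of TFEB or TFE3 binding.

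None of the 38 genes differed between groups past the threshold of an adjusted p under 0.05 in limma, where p-values were adjusted over all 12400 genes tested. The same holds for every one of the 12400 genes, with smallest adjusted p-values of 0.228 for GFP-positive against control cells, 0.327 for GFP-negative against control cells and 0.9998 between the fractions. At an unadjusted p under 0.05, 3 of the 38 (7.89%) differed between GFP-positive and control cells, against 6.49% of all genes tested. The count was also 3 of 38 between GFP-negative and control cells, against 5.57%, and 0 of 38 between the fractions, against 2.55%. The shares among the 38 are near these backgrounds. The genes concerned were Gla, Glb1, Atp6v1a and Map1lc3b. Both comparisons with control use the same control arrays.

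The median difference of lysosomal genes was 0.10 on the log2 scale in GFP-positive against control cells, with 18 of 29 higher and 11 lower, while 47.2% of all genes tested were higher and their median was -0.028. In GFP-negative against control cells the median was 0.0085, with 15 higher and 14 lower, against a median of -0.038 and 46.5% higher for all genes. The median in GFP-positive cells was 0.423 without GFP-positive 2 and 0.000258 without GFP-positive 3. In GFP-negative cells leaving out 1 array gave medians from -0.0457 to 0.147, so the sign turned. Autophagy genes had medians of -0.051 and -0.12, with 3 of 9 higher and 6 lower in each fraction. Leaving out 1 array gave -0.215 to -0.0385 in GFP-positive and -0.197 to -0.0567 in GFP-negative cells, and averaging each gene's probe sets gave 0.103 and -0.284, so the sign in GFP-positive cells depends on the choice of probe set. For single genes the median 95% interval reached 1.08 to either side of the difference for lysosomal genes and 0.79 for autophagy genes.

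**Figure D1:**
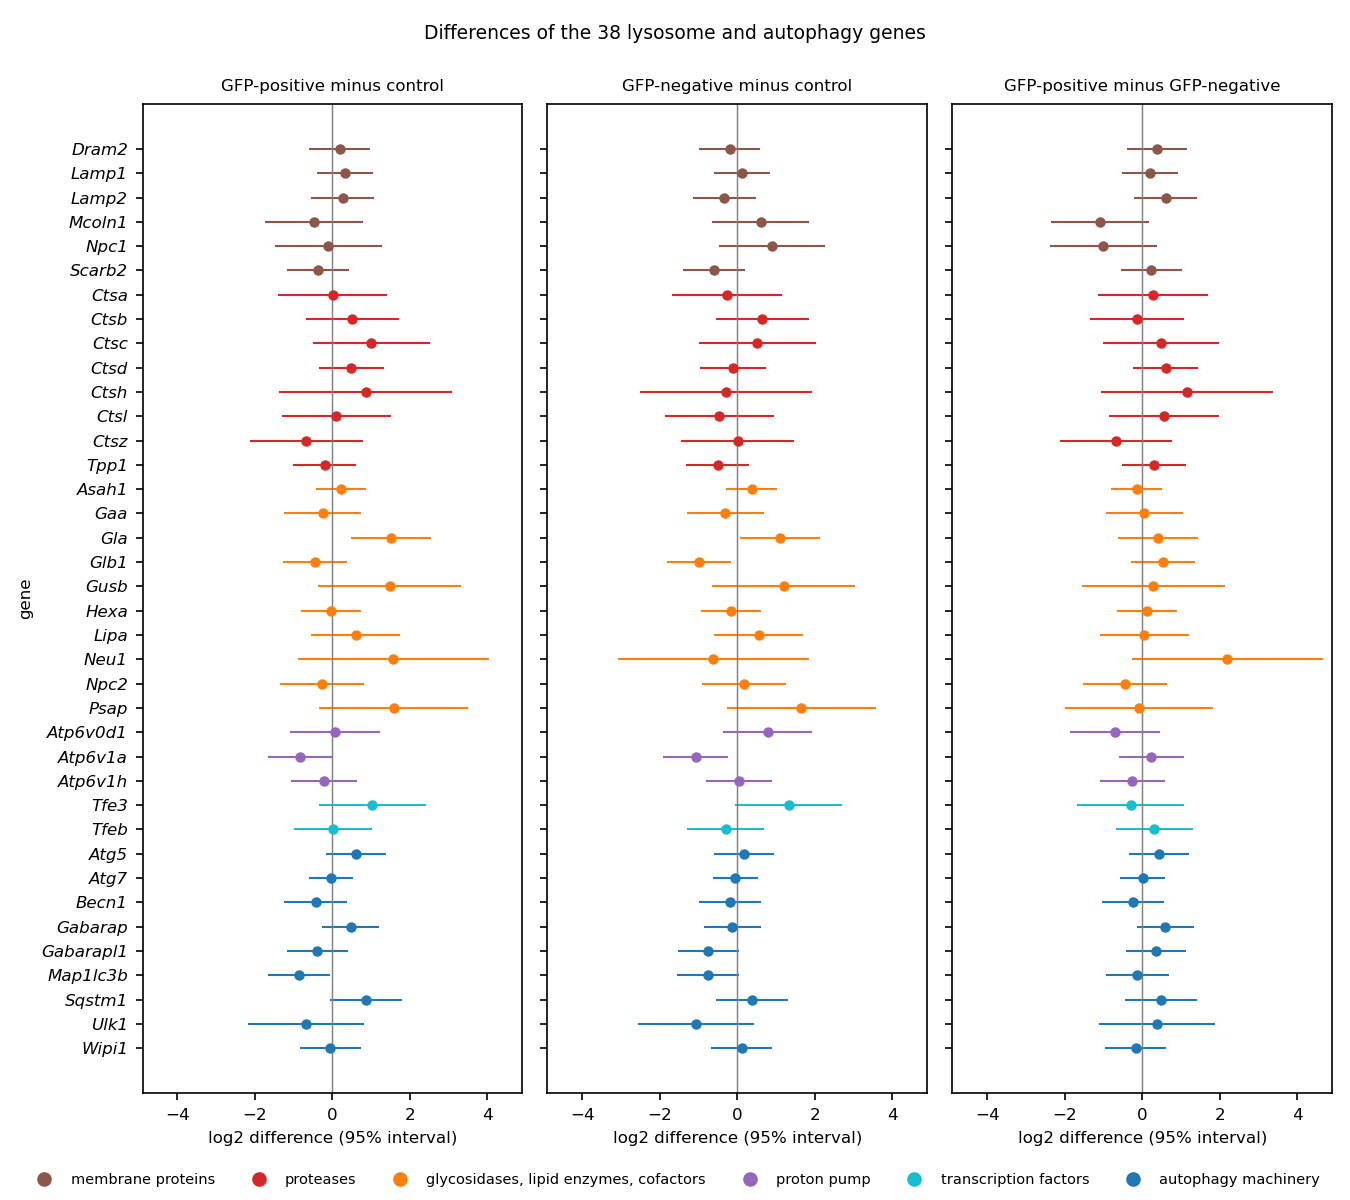
Log2 differences of the 38 genes (x axis, log2 units) in the 3 comparisons, with points for the limma estimate and lines for its 95% interval, coloured by role. The interval holds 0 for 35 of 38 genes in each comparison with control and for 38 of 38 between the fractions, and Neu1, Ctsh, Psap and Gusb have the widest intervals.

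Among the glycosidases and lipid enzymes, Gla had the smallest p of the 38 genes in the comparison of GFP-positive with control cells. Gla encodes alpha-galactosidase A, which removes terminal galactose from glycolipids. Its level was 4.87, 5.88 and 4.80 on control arrays 1 to 3, 6.52, 6.88 and 5.46 on the GFP-negative arrays, and 6.31, 6.57 and 7.22 on the GFP-positive arrays. Every GFP-positive array was above every control, whereas GFP-negative 3 lay below control 2. The difference was 1.52 ± 0.46 (SE; 95% interval 0.49 to 2.55; 2.86-fold) in GFP-positive cells, with a limma adjusted p of 0.609, and 1.10 ± 0.46 in GFP-negative cells, with an adjusted p of 0.876. Both other probe sets of Gla lay below the level filter of 4.03, at means of 2.08 and 1.59, so the difference rests on 1 probe set.

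Glb1, the beta-galactosidase of the lysosome and the enzyme behind the senescence stain, went the other way. It stood at 5.91, 6.49 and 5.42 in controls, at 5.20, 5.26 and 4.40 in GFP-negative cells and at 5.20, 5.42 and 5.84 in GFP-positive cells. The GFP-negative arrays were all below the controls, and the GFP-positive arrays overlapped them. The difference was -0.99 ± 0.37 (SE; 95% interval -1.82 to -0.16) in GFP-negative cells, with a limma adjusted p of 0.862, and -0.45 ± 0.37 in GFP-positive cells, the latter -0.177 without control 2 and -0.711 without control 3. Glb1 has 1 probe set.

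The remaining genes of this role were Hexa, Gaa, Gusb, Neu1, Lipa, Asah1, Psap and Npc2. The large differences among them rested on single arrays, and these genes were singled out after their values were seen. Psap, whose product is cut into the saposins that help hydrolases reach their lipids, read 9.14, 8.31 and 5.23 in controls against 8.73 to 10.01 in GFP-negative and 8.91 to 9.47 in GFP-positive cells. Its difference in GFP-positive cells was 1.58 ± 0.85 (SE) and 0.42 without control 3. In GFP-negative cells it was 1.66 ± 0.85, and 0.49 without control 3. Gusb, beta-glucuronidase, was at 7.18, 7.14 and 4.14 in controls, and its differences of 1.48 ± 0.82 and 1.20 ± 0.82 became 0.48 and 0.19 without control 3. A second Gusb probe set, nearly as bright, differed by -0.33 and -0.32.

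Neu1, the lysosomal sialidase, stood at 10.0 on GFP-positive 2 and at 6.14 and 4.78 on the other GFP-positive arrays, against 5.24 to 5.67 in controls. Its difference from control was 1.58 ± 1.10 (SE), and 0.0624 without GFP-positive 2. In GFP-negative cells it was -0.62. A second Neu1 probe set, dimmer and with a control mean of 3.62, below the level filter, differed by 0.87 in GFP-positive and 1.46 in GFP-negative cells. Lipa and Asah1 break down lipids, the first cholesteryl esters and the second ceramide. Lipa was at 7.20 to 7.85 in controls and at 7.87 to 8.49 in GFP-positive cells, without overlap, and differed by 0.60 ± 0.51. A second Lipa probe set differed by -0.37, and the mean of the gene's 3 probe sets by 0.148. Asah1 was at 8.60 to 8.78 in controls and at 8.97 to 9.08 in GFP-negative cells, again without overlap, and differed by 0.37 ± 0.29. Hexa, a subunit of beta-hexosaminidase, spanned 9.51 to 9.94 in controls, 8.94 to 10.14 in GFP-negative cells and 9.42 to 9.98 in GFP-positive cells. The 3 groups overlapped throughout.

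**Figure D2:**
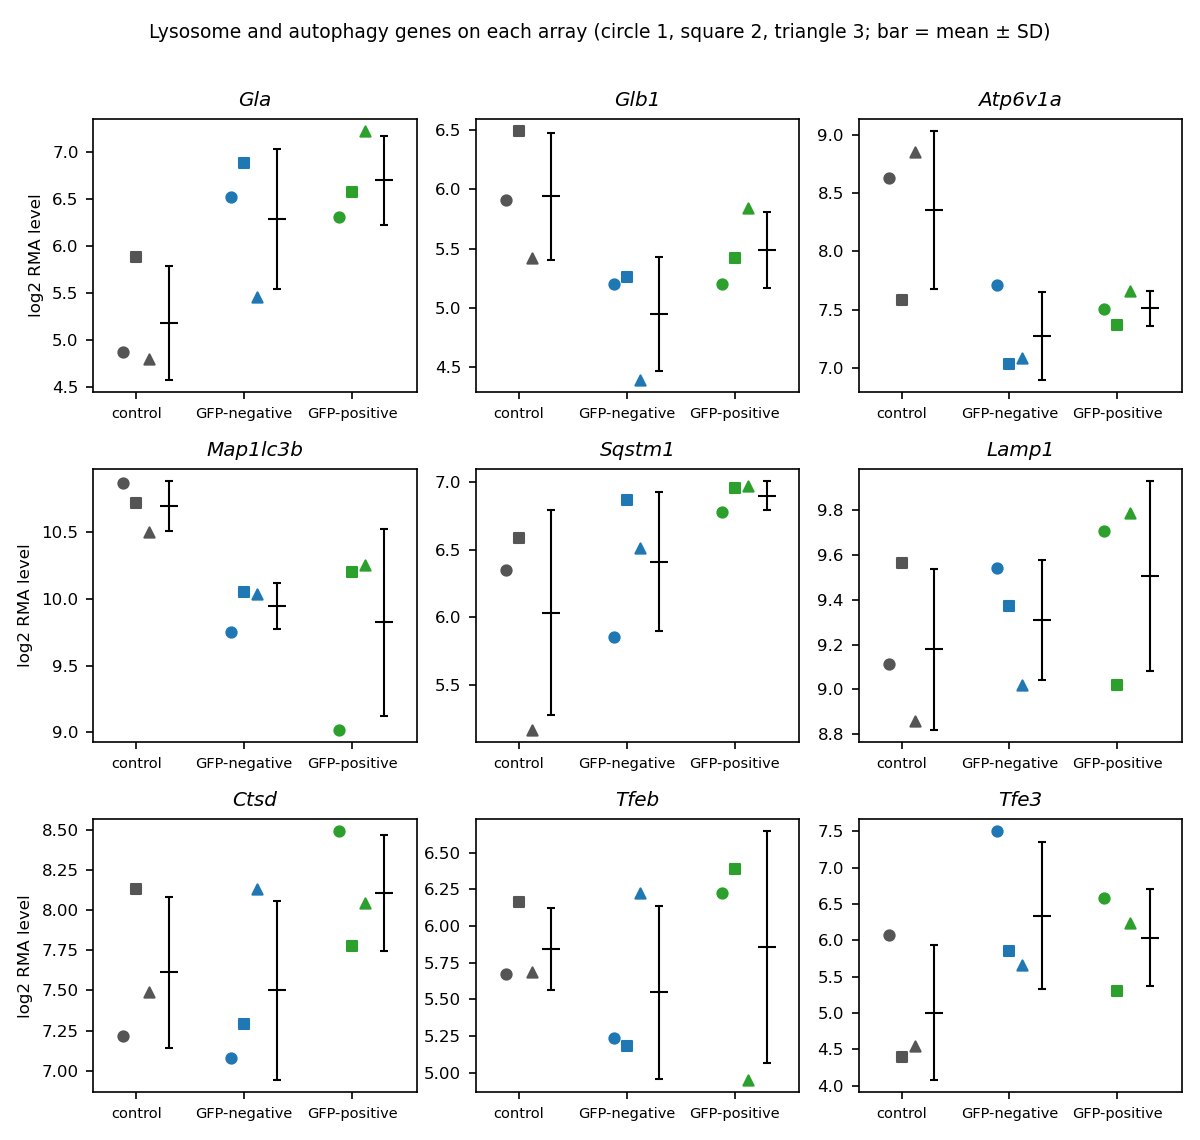
Log2 RMA level (y axis, a separate scale for each gene) of 9 genes on each array, by group (x axis), with circles, squares and triangles for arrays 1, 2 and 3 and a bar for mean ± SD (n = 3). For Gla and Sqstm1 the GFP-positive arrays lie above all controls, and for Map1lc3b both dnMPL fractions lie below all controls.

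Of the 8 lysosomal proteases, 6 were higher and 2 lower in GFP-positive than in control cells, and 3 were higher and 5 lower in GFP-negative cells, with 0 at an unadjusted p under 0.05 in either. Ctsd encodes cathepsin D, the main aspartic protease of lysosomes. Its level was 7.22, 8.13 and 7.49 in controls, 7.08, 7.29 and 8.13 in GFP-negative cells and 8.49, 7.77 and 8.05 in GFP-positive cells. The groups overlapped, and the difference in GFP-positive cells was 0.49 ± 0.38 (SE; 95% interval -0.36 to 1.34; limma adjusted p = 0.910), and 0.294 to 0.75 without 1 array. In GFP-negative cells it was -0.11 ± 0.38. Cathepsin B (Ctsb) and cathepsin C (Ctsc), which activates the serine proteases of granules, were each lowest on control 3, at 6.48 and 5.80. Ctsb was at 8.36 and 8.35 on the other controls and Ctsc at 7.48 and 7.90.

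Cathepsin H (Ctsh) was the most uneven protease. It stood at 4.15 and 4.55 on controls 1 and 2 but at 7.67 on control 3, and at 6.93 on GFP-negative 1 but at 4.06 and 4.49 on the other GFP-negative arrays. GFP-positive arrays lay at 5.69 to 7.11. The difference in GFP-positive cells was 0.86 ± 0.99 (SE), and ranged from 0.207 without control 1 to 1.96 without control 3. The tripeptidyl peptidase Tpp1 was at 6.95 to 8.08 in controls, at 6.47 to 7.42 in GFP-negative cells and at 7.10 to 7.44 in GFP-positive cells. Ctsa, Ctsl and Ctsz likewise had overlapping groups in all 3 comparisons.

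The lysosomal membrane genes Lamp1, Lamp2, Scarb2, Npc1, Mcoln1 and Dram2 split evenly, with 3 higher and 3 lower in each fraction against control. Lamp1, among the most abundant proteins of the lysosomal membrane, read 9.11, 9.57 and 8.86 in controls, 9.54, 9.37 and 9.02 in GFP-negative cells and 9.71, 9.02 and 9.79 in GFP-positive cells. Its difference was 0.33 ± 0.32 (SE; 95% interval -0.40 to 1.05) in GFP-positive cells and 0.13 ± 0.32 in GFP-negative cells, the first 0.166 to 0.57 without 1 array. Both are smaller than the range of the controls. Mcoln1, the calcium channel TRPML1, was at 5.57 to 6.18 in controls and at 6.21 to 6.81 in GFP-negative cells, without overlap, and differed by 0.60 ± 0.56, but by 0.0124 when its probe sets were averaged. In GFP-positive cells it was at 5.71, 3.91 and 6.42, with GFP-positive 2 the lowest of all arrays. Npc1, which exports cholesterol from the lysosome, was also lowest there, at 5.25 against 6.73 and 7.59.

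Proton pump genes differed in direction. Atp6v1a, the catalytic subunit A, was at 8.63, 7.58 and 8.85 in controls, at 7.71, 7.03 and 7.09 in GFP-negative cells and at 7.51, 7.37 and 7.66 in GFP-positive cells. Controls 1 and 3 were above every dnMPL array, while control 2 lay among them. The difference was -1.07 ± 0.37 (SE; 95% interval -1.91 to -0.24; limma adjusted p = 0.829) in GFP-negative and -0.84 ± 0.37 (adjusted p = 0.762) in GFP-positive cells. A second Atp6v1a probe set, dimmer than the first, differed in the opposite direction by 0.34 and 0.42. Atp6v0d1, a subunit of the membrane sector, was at 7.18 to 7.73 in controls and at 7.89 to 8.45 in GFP-negative cells, without overlap, and differed by 0.78 ± 0.51. It was at 8.18, 6.21 and 8.26 in GFP-positive cells. Atp6v1h ranged from 5.24 to 6.23 in controls, from 5.49 to 5.94 in GFP-negative cells and from 5.14 to 6.21 in GFP-positive cells.

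Neither transcription factor passed the test. Tfeb was at 5.67, 6.17 and 5.69 in controls, at 5.24, 5.18 and 6.23 in GFP-negative cells and at 6.23, 6.39 and 4.95 in GFP-positive cells. Its difference in GFP-positive cells was 0.014 ± 0.44 (SE; 95% interval -0.98 to 1.01), with a sign that turned when single arrays were left out (-0.25 to 0.47), and in GFP-negative cells it was -0.30 ± 0.44 (-0.635 to -0.112 without 1 array). Tfe3 was at 6.07, 4.39 and 4.55 in controls, at 7.50, 5.85 and 5.66 in GFP-negative cells and at 6.58, 5.30 and 6.24 in GFP-positive cells. Controls 2 and 3 were the lowest of the 9 arrays, but control 1 lay within both dnMPL fractions. The difference was 1.33 ± 0.61 (limma adjusted p = 0.876) in GFP-negative cells, 0.75 without GFP-negative 1, and 1.03 ± 0.61 (adjusted p = 0.846) in GFP-positive cells, 1.57 without control 1. The 12 genes with CACGTG in their window, all of them tested, had median differences of 0.040 in GFP-positive and -0.079 in GFP-negative cells, beside 0.0996 and -0.14 for the 20 tested genes with a window without it.

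In the autophagy machinery the gene with the smallest p in GFP-positive cells was Map1lc3b, which encodes LC3B, the protein that is attached to the forming autophagosome membrane. Its level was 10.87, 10.72 and 10.50 in controls, 9.75, 10.05 and 10.04 in GFP-negative cells and 9.02, 10.20 and 10.26 in GFP-positive cells. All 6 dnMPL arrays were below all controls. The difference was -0.87 ± 0.36 (SE; 95% interval -1.67 to -0.07; limma adjusted p = 0.731) in GFP-positive cells, -0.47 without GFP-positive 1, and -0.75 ± 0.36 (adjusted p = 0.884) in GFP-negative cells. The other 3 probe sets differed by 0.20, -0.24 and 0.60 in GFP-positive cells and by -0.35, -0.32 and 0.23 in GFP-negative cells. The direction was thus shared by 1 of the 3 in GFP-positive and 2 of the 3 in GFP-negative cells, and the mean of all 4 probe sets by -0.0778 and -0.295.

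Sqstm1, or p62, carries cargo to LC3 and is itself consumed by autophagy. It was at 6.35, 6.59 and 5.17 in controls, at 5.85, 6.86 and 6.51 in GFP-negative cells and at 6.77, 6.95 and 6.97 in GFP-positive cells. The GFP-positive arrays were above all controls, by a narrow margin over control 2. The difference in GFP-positive cells was 0.86 ± 0.41 (SE; limma adjusted p = 0.773), and 0.43 without control 3. In GFP-negative cells it was 0.37 ± 0.41, and -0.0585 without control 3. The dimmer Sqstm1 probe set differed by -0.66 and -1.05.

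Gabarapl1, a relative of LC3, was at 9.46, 9.06 and 8.26 in controls, at 8.01, 8.05 and 8.48 in GFP-negative cells and at 8.33, 8.82 and 8.48 in GFP-positive cells. It differed by -0.75 ± 0.35 (SE) in GFP-negative cells, -0.48 without control 1 and -1.08 without control 3, and by -0.39 ± 0.35 in GFP-positive cells, -0.122 without control 1 and -0.718 without control 3. Its second probe set, about as bright, differed by -0.34 and -0.38, in the same direction. Gabarap, of the same family, ranged from 8.91 to 9.29 in controls, from 8.65 to 9.48 in GFP-negative cells and from 9.24 to 10.11 in GFP-positive cells. Ulk1, the kinase that starts autophagy, was at 8.32 on control 1 and 4.69 on GFP-negative 3, and between 6.49 and 7.43 on the other 7 arrays. Its difference of -1.06 ± 0.67 in GFP-negative cells was -0.23 without GFP-negative 3.

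The brightest probe sets of Becn1, Atg5, Atg7 and Wipi1 showed overlapping groups. Becn1, part of the lipid kinase complex that nucleates the autophagosome, was at 7.70 to 8.37 in controls, 7.33 to 8.48 in GFP-negative cells and 7.49 to 8.02 in GFP-positive cells. Atg7, the enzyme that activates LC3 for lipid attachment, stood at 5.97 to 6.62 in controls and between 6.19 and 6.25 on all 6 dnMPL arrays, 4 of which shared the value 6.25. RMA often gives arrays such equal values, so that narrow spread is not a measure of precision. A second Atg7 probe set differed by 1.07 in GFP-positive and 0.88 in GFP-negative cells. Atg5 lay at 4.84 to 5.47 in controls, 5.17 to 5.57 in GFP-negative cells and 5.47 to 6.51 in GFP-positive cells, and control 3 and GFP-positive 1 shared the value 5.47. A second Atg5 probe set, of similar brightness, stood at 4.47, 5.46 and 3.69 in controls and at 5.59, 6.83 and 6.33 in GFP-positive cells, without overlap. It differed by 1.71 in GFP-positive and 0.92 in GFP-negative cells, against 0.61 and 0.18 by the brightest.

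Groups that did not overlap were counted next. Against control this held for 4 of the 38 genes in GFP-positive cells (10.5%; Gla, Lipa and Sqstm1 higher, Map1lc3b lower), beside 8.61% of all genes tested (4.35% higher, 4.26% lower). In GFP-negative cells it held for 5 (13.2%; Asah1, Mcoln1 and Atp6v0d1 higher, Glb1 and Map1lc3b lower), beside 11.4% (4.94% higher, 6.47% lower). These shares too are close to the background. With 3 arrays in each group, 0.1 is the smallest p that exact permutation allows.

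Between GFP-positive and GFP-negative cells of the dnMPL mice the groups overlapped for all 38 genes, whereas they were apart for 6.4% of all genes tested (3.96% higher, 2.44% lower). Lysosomal genes had a median difference of 0.24, with 19 of 29 higher in GFP-positive cells, and autophagy genes of 0.36, with 6 of 9 higher, while 51.8% of all genes tested were higher and their median was 0.015. Leaving out 1 array at a time gave medians between 0.05 and 0.28 for lysosomal and between 0.11 and 0.36 for autophagy genes. The genes that differed from control at an unadjusted p under 0.05 differed between the fractions by 0.41 ± 0.46 (SE) for Gla, 0.54 ± 0.37 for Glb1, 0.23 ± 0.37 for Atp6v1a and -0.12 ± 0.36 for Map1lc3b. Without 1 array Glb1 ranged from 0.258 to 0.69 and Atp6v1a from 0.112 to 0.452. Their 95% intervals were -0.62 to 1.44, -0.30 to 1.37, -0.60 to 1.07 and -0.92 to 0.68, which do not show that the fractions are alike. The differences furthest from 0 were those of Neu1 (2.20 ± 1.10, and 0.687 without GFP-positive 2), Ctsh (1.15 ± 0.99) and Mcoln1 (-1.08 ± 0.56, and -0.362 without GFP-positive 2). The second Neu1 probe set differed by -0.59, in the opposite direction. Ctsd differed by 0.60 ± 0.38.

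The choice of probe set bore on several of these values. The 38 genes have 92 probe sets, 28 genes having more than 1, and 24 genes have more than 1 above the level filter. For 11 of these 24 all such probe sets differed in 1 direction between GFP-positive and control cells, and for 10 between GFP-negative and control cells. Becn1, Ctsc, Psap, Scarb2 and Gabarapl1 were among those with 1 direction in both comparisons, whereas Atp6v1a, Gusb, Sqstm1 and Map1lc3b were not.

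**Figure D3:**
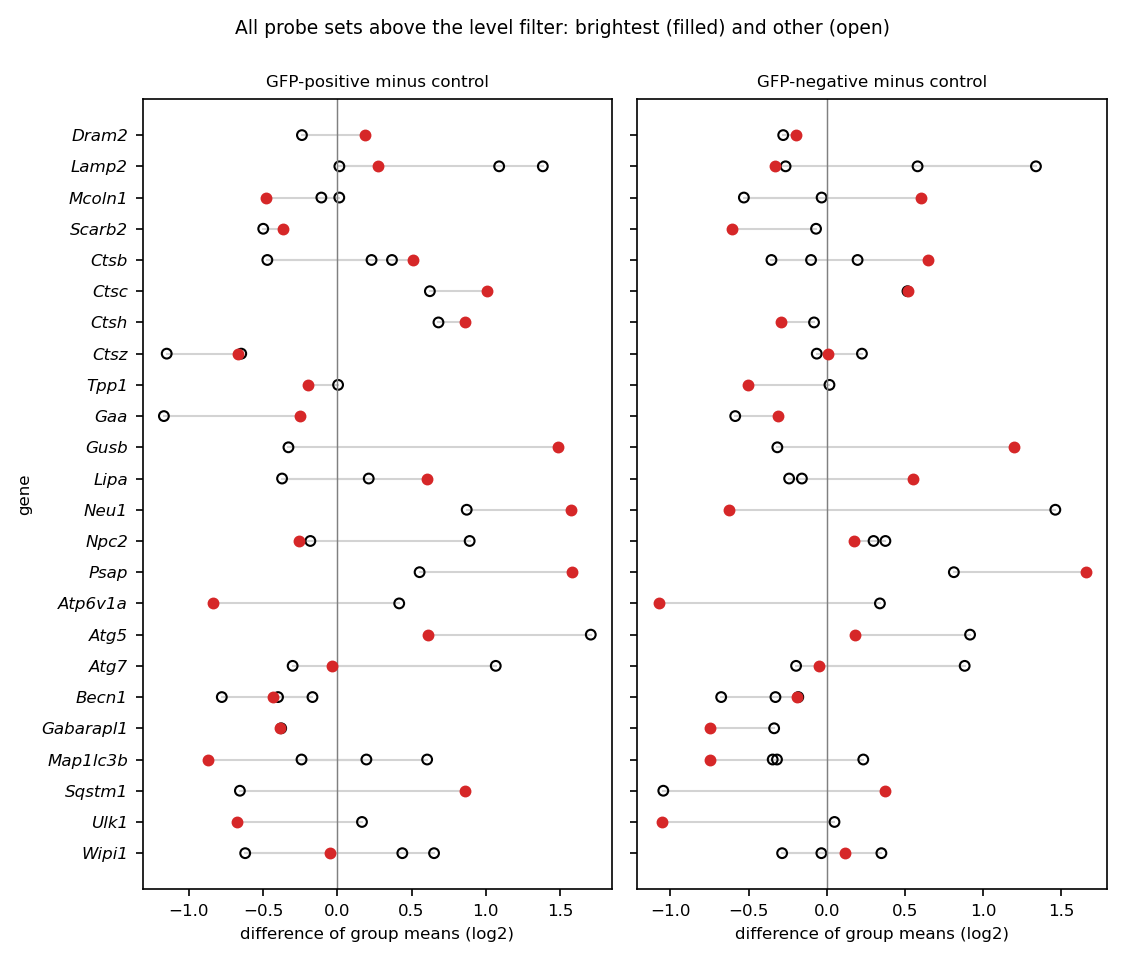
Difference of group means (x axis, log2 units) for every probe set above the level filter, for the 24 genes with more than 1, with the brightest filled and the others open. The filled and open points of Atp6v1a, Gusb and Sqstm1 lie on opposite sides of 0 in both panels, and those of Psap and Ctsc on the same side.

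The lowest levels of lysosomal genes were unevenly spread over the arrays in a way the groups do not give. Of the 29, 7 had their lowest level on control 3, 7 on GFP-positive 2 and 6 on GFP-negative 2, against 0 to 3 on each other array. Control 3 was also highest for 3 of the 29 and GFP-positive 2 for 4. Such counts were not made over all genes tested, so they do not show a trait of lysosomal genes. Of the 9 autophagy genes, 1 was lowest on control 3 and 0 on GFP-positive 2. The median deviation of the 29 from their own means was -0.30 on control 3 and 0.38 on GFP-positive 3, the lowest and highest of the 9 arrays. Control 3 and GFP-positive 2 also stood apart in the Gapdh controls, whose 3′ signal exceeded the 5′ signal by 3.87 and 3.22 against 2.47 to 2.89 elsewhere, a gap that widens with incomplete transcripts. They had the lowest array weights, 0.364 and 0.369 against 0.809 to 2.38. GFP-negative 2, where 6 of the 29 were lowest, had a Gapdh gap of 2.77 and a weight of 2.12. The median deviation of the 29 was -0.0372 on GFP-positive 2. With both control 3 and GFP-positive 2 left out, 6 of 38 genes differed between GFP-positive and control cells at an unadjusted p under 0.05 (15.8%), beside 6.3% of all genes in that fit. Gla then differed by 1.39, Map1lc3b by -1.16, Sqstm1 by 0.403 and Tfe3 by 1.18. Psap differed by 0.469, Gusb by -0.00313, Neu1 by -0.0166 and Ctsh by 2.27.

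**Figure D4:**
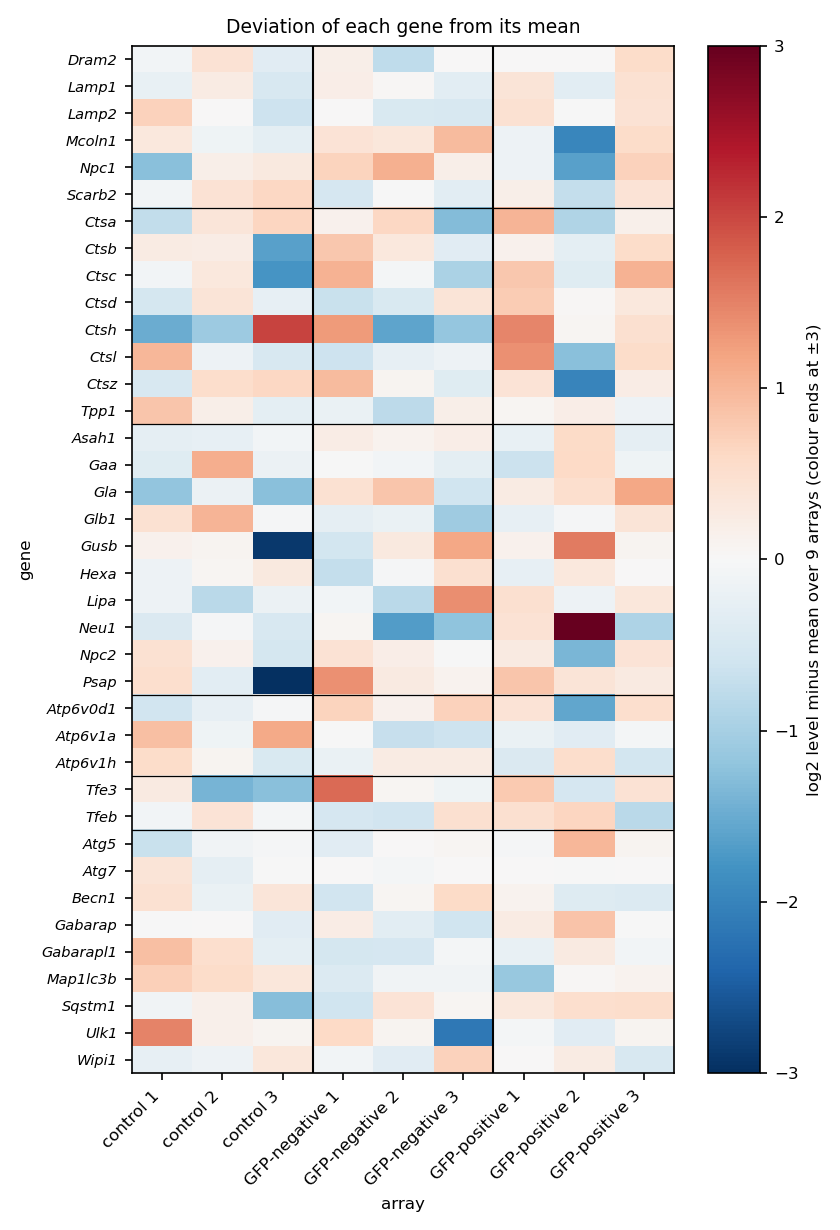
Level of each gene minus its own mean over the 9 arrays (colour, log2 units), with arrays in columns and genes in rows ordered by role. Control 3 is lowest for Psap and Gusb, and GFP-positive 2 is highest for Neu1 and lowest for Mcoln1, Npc1 and Ctsz.

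Markers of other cells were also read on each array. Of 17 granulocyte markers listed, 14 were matched and all of these were above the level filter, and their summed level (log2 of the sum) was 12.5 to 14.3 in controls, 14.1 to 15.4 in GFP-negative and 14.8 to 15.8 in GFP-positive cells. The controls were uneven, at 13.15, 12.45 and 14.3, and control 3 exceeded GFP-negative 3 at 14.15. All 14 were higher than control in both fractions, with median differences of 2.76 (GFP-positive) and 2.14 (GFP-negative). Groups did not overlap control for 7 of the 14 in GFP-positive and 3 in GFP-negative cells, beside 4.35% and 4.94% of all genes. At an unadjusted limma p under 0.05, 11 were higher in GFP-positive and 7 in GFP-negative cells, beside 3.3% and 2.83% of all genes. None passed at an adjusted p under 0.05. Granulocytes and macrophages are rich in lysosomes, and in bulk RNA fewer cells of a type cannot be told apart from less RNA per cell. The monocyte and macrophage markers, 15 of 17 matched, summed to 8.16 to 9.16 in controls, 9.43 to 10.6 in GFP-negative and 8.98 to 11.6 in GFP-positive cells. Of these 15, 10 were above the level filter, among them Csf1r, C1qb, C1qc, Mrc1 and Vcam1. In each fraction 8 of the 10 were higher than control, beside 47.2% (GFP-positive) and 46.5% (GFP-negative) of all genes. In controls C1qc read 3.1 to 3.8 and Mrc1 2.7 to 4.1, with both control means below the level filter. Both genes entered the test only through the dnMPL arrays, so the count of 8 was in part set by the filter. Adgre1, C1qa, Mertk, Ms4a7 and Cd14 were below the level filter. Markers of LSK and stem cells, 14 of 15 matched, summed to 12.4 to 12.6, 12.1 to 12.2 and 11.6 to 12.2, with Kit at 8.08 to 8.73, 7.92 to 8.22 and 6.38 to 8.18 and Slamf1 below the filter. Of the 13 tested, 7 were lower in GFP-positive and 5 in GFP-negative than in control cells at an unadjusted p under 0.05, beside 3.19% and 2.74% of all genes, and 0 were higher. Erythroid markers summed to 11.1 to 11.6 in controls, 11.5 to 11.8 in GFP-negative and 11.8 to 12.2 in GFP-positive cells. At that p 4 of 11 were higher in each fraction, beside 3.3% (GFP-positive) and 2.83% (GFP-negative) of all genes. The 11 include Slc4a1, which read 2.2 to 4.9 in controls. Its control mean lay below the level filter, so it entered the test only through the dnMPL arrays. Mast cell and basophil markers summed to 9.26 to 9.79, 9.37 to 10.1 and 9.47 to 10.5. Of the 8 tested, 4 were higher at that p in GFP-positive and 1 in GFP-negative cells. Megakaryocyte markers summed to 9.35 to 10.1, 8.95 to 9.28 and 8.99 to 9.15, with 3 of 6 lower in GFP-positive and 2 in GFP-negative cells. Dendritic cell markers summed to 10.3 to 11, 10.8 to 11.2 and 11 to 11.3, with 2 of 10 higher in each fraction. Sums of T and NK cell markers overlapped, at 8.06 to 8.90, 8.57 to 8.83 and 8.48 to 8.85. B cell markers summed to 7.41 to 10.3, 8.62 to 9.82 and 9.62 to 10.7, with 2 of 8 higher in GFP-positive and 0 in GFP-negative cells. Endothelial and stromal markers summed to 8.6 to 9.16, 9.01 to 9.68 and 9.09 to 9.82. Of the 7 tested, 3 were higher and 2 lower in GFP-positive cells, and 2 were higher and 2 lower in GFP-negative cells. Beside these counts stand the same shares of all genes, 3.3% and 2.83% higher and 3.19% and 2.74% lower. Mcpt4 (mast cells), Itgax (dendritic cells) and Cxcl12 (stroma) had control means below the level filter, so counts of these lists too were in part set by it. Ly6a, which encodes Sca1, is not analysed here. The part of these cells in the levels of lysosomal genes was not tested.

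Beyond the 39 genes, 136 other genes of lysosomes, their sorting, the proton pump, TFEB control and autophagy were listed, and 125 of them were tested. At an unadjusted p under 0.05, 6 were higher and 3 lower in GFP-positive than in control cells, against 3.3% and 3.19% of all genes tested. In GFP-negative cells 2 were higher and 2 lower, against 2.83% and 2.74%, and between the fractions 2 were higher and 2 lower in GFP-positive cells, against 1.28% and 1.27%. None passed at an adjusted p under 0.05. Their median differences were 0.051, 0.11 and -0.017. By role, 3 of 28 hydrolases and cofactors, 2 of 25 membrane and sorting genes and 1 of 41 autophagy genes were higher in GFP-positive cells, 3 of 41 autophagy genes were lower, and 0 of 13 pump subunits and 0 of 18 TFEB and mTORC1 control genes were in either list. The 1 autophagy gene counted as higher is Dram1. It is also among the 6 higher in GFP-positive and the 2 higher in GFP-negative cells. Dram1 entered the test only through the dnMPL arrays, so these counts were in part set by the level filter.

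Dram1, a p53 target that promotes autophagy, was among those higher in both fractions. It was at 3.67, 3.91 and 2.80 in controls, at 5.71, 5.71 and 6.71 in GFP-negative cells and at 6.33, 5.56 and 6.66 in GFP-positive cells. All controls lay below the level filter of 4.03, so the gene entered the test only through the dnMPL arrays and no difference is given for it. Dram2, its relative among the 38 genes, was at 5.54 to 6.32 in controls and overlapped in both fractions.

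Arsb, arylsulfatase B, which trims sulfate from dermatan sulfate, was at 5.53, 6.11 and 4.66 in controls, at 6.77, 7.05 and 8.08 in GFP-negative cells and at 7.31, 7.58 and 6.61 in GFP-positive cells. The groups did not overlap control, and the differences were 1.74 ± 0.48 (SE; limma adjusted p = 0.553) in GFP-positive and 1.87 ± 0.48 (adjusted p = 0.603) in GFP-negative cells. They were 0.75 and 0.92 by the mean of the gene's probe sets. Ctss, cathepsin S of antigen-presenting cells, was at 8.08, 8.42 and 8.82 in controls and 9.42, 9.60 and 9.10 in GFP-positive cells, a difference of 0.93 ± 0.31. Galns, another sulfatase, differed by 1.04 ± 0.35 from control and by 0.97 ± 0.35 from GFP-negative cells, at 6.64, 6.08 and 5.29 in GFP-positive cells against 4.84 to 5.13 in controls and 4.89 to 5.25 in GFP-negative cells. The Galns difference was 0.58 and 0.56 by the mean of its probe sets. Litaf and Igf2r, of the membrane and sorting genes, were also higher in GFP-positive than in control cells. They differed by 1.05 ± 0.36 and 1.17 ± 0.42 (limma adjusted p of 0.679 and 0.702) and were named after their values were seen.

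Lower in GFP-negative than in control cells were Dnase2a, the acid DNase of the lysosome (-0.93 ± 0.34, SE), and Vmp1, a membrane protein needed to form autophagosomes (-0.78 ± 0.34). Lower in GFP-positive than in control cells were Vmp1 (-0.83 ± 0.34), the mitophagy receptor Bnip3 (-1.64 ± 0.61) and the SNARE protein Vamp8 (-0.87 ± 0.37), the last pair named after their values were seen. Vmp1 was at 10.16 to 10.96 in controls and at 9.69 to 9.86 in GFP-negative cells, and averaging its probe sets gave a difference of -0.28 there. Between the fractions, Atg4b, the protease that processes LC3, stood at 7.05 to 7.27 in GFP-positive and 7.57 to 7.95 in GFP-negative cells, a difference of -0.63 ± 0.25. The pump subunits Atp6v1e1 and Atp6v0b differed by 0.98 ± 0.42 and -0.99 ± 0.44. Without GFP-positive 2 they differed by 0.61 and -0.62, which is over 1.5 times less. For Bnip3, Vamp8 and Vmp1 in GFP-positive cells the limma adjusted p was 0.720, 0.745 and 0.731, and for the other genes of this paragraph it was at least 0.860.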

How the data were processed

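Amplified RNA of each of 9 LSK samples was measured on 1 Affymetrix mouse array. The authors deposited log2 values made with RMA, a method named without a version in the submitters' processing notes. Of 45101 probe sets, 34945 named 1 gene, 932 several and 9160 none, with 64 controls left out, and 34741 were matched to RefSeq by Entrez number. Of 18193 genes, those whose brightest probe set had a mean above the 40th percentile (4.03) were tested (12400), with a limma 3.58.1 fit (lmFit, then eBayes, in R 4.3.3) of the 9 arrays and Benjamini-Hochberg adjustment. The fit was tested on simulated data. RMA gave 19019 probe sets equal values on 2 or more arrays. The members and lists were chosen with earlier results of these data known. Genes shown on every array were those with an unadjusted p under 0.05, those that differed by at least 1 (log2) with groups that did not overlap, and Lamp1, Ctsd, Tfeb, Tfe3, Map1lc3b and Sqstm1, and, of the other listed genes, up to 4 per comparison by p. The rest were chosen after their values were seen, Psap, Gusb, Neu1, Ctsh and Gabarapl1 among them. Replicate numbers were not used to pair the samples in the main fit, as the labels do not state a pairing. Alternatives changed the filter, probe set, normalization, variance prior, weights, arrays and block. Figures used matplotlib 3.10.9.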

Additional observations from a re-analysis of the deposited data

How the results depend on the processing

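The number of arrays limits every value, and 0 of the genes tested passed limma's threshold under each alternative run. Of 204 values for whole comparisons recomputed under an alternative, 181 stayed close and 23 moved. A median counted as close if it moved by under 0.184. That is more than the size of any main median against control, so a median could turn in sign and still count as close. The 181 also include the counts of genes past the threshold, which were 0 in every run. The count of the 38 genes at an unadjusted p under 0.05 was, in GFP-positive against control cells (main 3), 0 by the mean of probe sets (beside 6.74% of all genes in that fit), 1 with only the 2 groups compared (4.94%), 5 with the replicate block (6.54%), 6 without both control 3 and GFP-positive 2 (6.3%), and 1 to 4 without 1 array. In GFP-negative against control cells (main 3) it was 1 with the most variable probe set (5.53%), 7 with array weights (9.14%), 5 with the replicate block (5.03%) and 1 to 3 without 1 array. Between the fractions (main 0) it was 3 with array weights (7.94%), 2 without both arrays (2.55%) and 0 to 3 without 1 array. In the fits without 1 array the share of all genes moved too. Against control it was 5.49% to 9.1% in GFP-positive and 4.12% to 6.96% in GFP-negative cells, and between the fractions 1.64% to 6.81%. The count of 4 came without control 3, beside 6.73%. The count of 3 between the fractions came without GFP-positive 3, beside 6.81%. The block pairs arrays by their number alone. Same-numbered arrays deviated from their group means with correlations of -0.29 to 0.101. With 3 arrays in each group these do not settle whether such arrays share mice. Medians of autophagy genes were -0.378 and -0.319 against control with the most variable probe set, and between the fractions 0.17 with array weights, 0.107 without both arrays and 0.107 to 0.358 without 1 array. Medians of lysosomal genes ranged from 0.000258 to 0.423 (GFP-positive against control), from -0.0457 to 0.147 (GFP-negative against control) and from 0.0495 to 0.284 (between the fractions) without 1 array. Of 867 values for single genes, 24 turned in sign. With the most variable probe set, which for Gla lies below the level filter, Gla was -0.885 and -1.2, Atp6v1a 0.417 and 0.34, and Sqstm1 -0.656 and -1.05 (GFP-positive, then GFP-negative, against control), and Map1lc3b 0.0776 between the fractions. By the mean of probe sets Sqstm1 was -0.336 in GFP-negative cells and Map1lc3b 0.217 between the fractions. Without both arrays Tfeb was -0.33, Gusb -0.00313 and Neu1 -0.0166 in GFP-positive cells, and Lamp1 -0.0292 and Sqstm1 -0.0585 in GFP-negative cells. Without 1 array, GFP-negative against control gave -0.428 to 0.147 for Ctsd, -0.0292 to 0.326 for Lamp1 and -0.0585 to 0.652 for Sqstm1, GFP-positive against control -0.254 to 0.467 for Tfeb, and the fractions -0.00275 to 0.709 for Gla and -0.338 to 0.281 for Map1lc3b. Beyond what each setting changes, the cause was not tested.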
